A study of Homo sapiens with 3 samples.

Results

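HMGA1 peaks that were called over histone H3 but not over input DNA made up a small set of 4521 regions on chromosomes 1 to 22. The 2 peak lists of 1 HMGA1 library were compared. The first was called with an H3 library as control (the H3 list, 261844 peaks on these chromosomes) and the other with input DNA as control (the input list, 385953 peaks on all chromosomes). A peak of the H3 list was counted as H3-only when it shared no base with any peak of the input list, and as shared when it overlapped one by at least 1 bp. The H3-only peaks were 1.73% of the H3 list, and 257323 peaks were shared. No cell or culture was treated: all 3 libraries were chromatin from DAMI cells, a human leukaemic line that the labels place under MPN/AML, grown in culture medium with serum. They were an HMGA1 immunoprecipitate, an H3 immunoprecipitate and sonicated DNA taken with no antibody, with 1 library each and no replicate.

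HMGA1 is a small architectural protein of chromatin. Its AT-hook motifs grip the minor groove of AT-rich DNA and bend it, and it can displace the linker histone and help other factors reach their sites. It is abundant in stem cells and in many leukaemias, and low in most mature cells. A ChIP peak is a stretch where the antibody brought down more DNA than a control, so the control decides part of what is called. An H3 control follows nucleosomes, which open DNA lacks. An input control follows how much of each stretch is recovered at all, through copy number, shearing and how uniquely reads can be placed. An H3 control carries these effects too.

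H3-only peaks were chosen by both calls together, so every fold, q-value, read level and width given here comes from the measurements that chose the peaks. All are descriptions of these libraries, with no test, and the Wilson 95% intervals cover counting error only. Fold and q-value were taken from the authors' lists on hg19 as they stand. Solving each peak's fold and p-value for read numbers gave a whole HMGA1 read number at all 263033 peaks of the H3 list and all 385953 of the input list. The H3 library had 0.787 times the depth of the HMGA1 library. Total read numbers are unknown. The control level is the number of control reads the caller expected at the summit, with a genome-wide floor of 2.188 reads for H3 and 2.78 reads for input. These floors correspond to the same depth of HMGA1 reads, so control levels are also given as multiples of their floor.

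Few peaks of either kind lay near the rule's own limit. Of the shared peaks that met a single input-list peak, 11 overlapped it by less than 50 bp, and 1 H3-only peak lay closer than 50 bp to the input list. Just outside the rule, the smallest overlaps were 2, 7 and 8 bp. These peaks had 14, 11 and 14 HMGA1 reads. Just inside, the smallest gaps were 29, 56 and 75 bp, on chromosome 9 from 10359424 (18 HMGA1 reads), chromosome 12 from 83955695 (12 reads) and chromosome 2 from 59167717 (15 reads). Distance between summits divided the list less cleanly. H3-only summits were 272 bp or more from every input-list summit, with a median of 1415 bp. The shared median was 1 bp, but 5815 shared peaks (2.26%) also had their summit more than 200 bp from any input-list summit, up to 2917 bp.

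Narrow, low peaks filled most of the set. H3-only peaks had a median width of 201 bp (quartiles 187 and 229), against 285 bp (227 and 392) for shared peaks. The smallest width in either list, 187 bp, was found at 1305 H3-only peaks (28.9%, 95% interval 27.6 to 30.2), against 5.7% of all H3-list peaks. H3-only summits carried a median of 18 HMGA1 reads (quartiles 16 and 20), and shared summits 23 (19 and 29). Shared peaks weighted to the same widths still had 19 reads (17 and 22). The median fold over H3 was 4.0 in H3-only peaks, 5.25 in shared peaks and 4.51 in shared peaks of the same width.

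The share of H3-only peaks fell with width in every class. It was 8.75% (8.3 to 9.21) among H3-list peaks of 187 bp, 5.35% (5.01 to 5.7) from 188 to 199 bp, 1.63% (1.49 to 1.78) from 225 to 249 bp, and 0.44% (0.387 to 0.499) from 300 to 399 bp. Only 7 of the 22161 peaks of at least 600 bp were H3-only. Read number gave the same order, from 6.59% (5.85 to 7.42) at 11 to 13 HMGA1 reads to 2.86% (2.72 to 3.0) at 18 to 20 reads and 0.188% (0.148 to 0.237) at 35 or more. High summits were therefore few but present: 309 H3-only peaks had at least 25 reads (6.8%, 6.1 to 7.6). The share was 42.1% in all shared peaks and 16.4% in shared peaks of the same width.

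**Figure D1:**
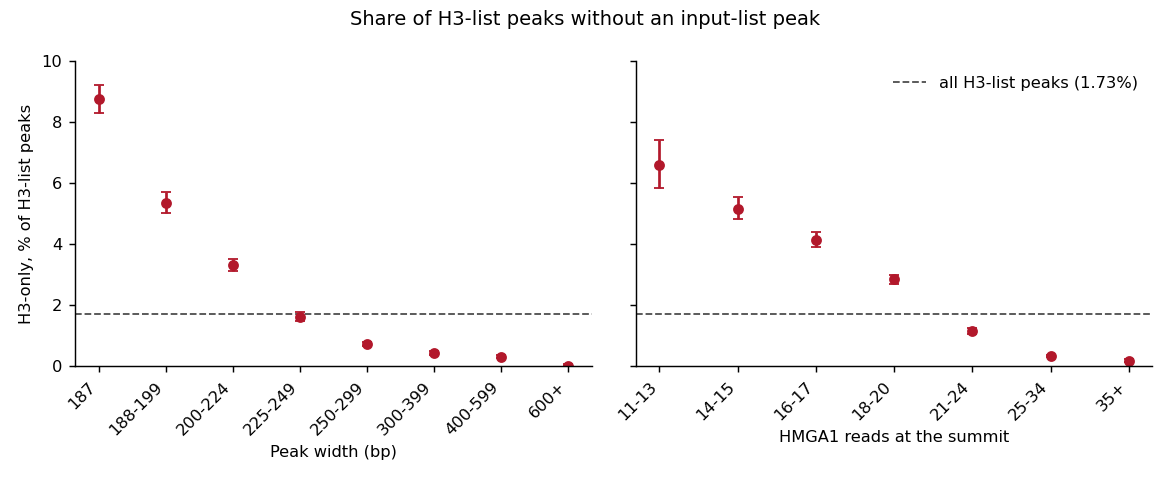
Percentage of H3-list peaks that were H3-only, by peak width in bp (left) and by HMGA1 reads at the summit (right). Points are shares with Wilson 95% intervals and the dashed line is the 1.73% of the whole list; the share falls from 8.75% at 187 bp and from 6.59% at 11 to 13 reads to below 0.2% in the last classes.

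Histone H3 was less often at its floor under H3-only peaks than under shared ones. The H3 control level had a median of 2.525 reads (quartiles 2.188 and 3.18), against 2.24 (2.188 and 3.0) in shared peaks of the same width, a ratio of 1.125. In multiples of the floor these medians were 1.15 and 1.03. H3 lay at the floor in 1158 H3-only peaks (25.6%, 24.4 to 26.9), where all H3-list peaks had 42.7% and shared peaks of the same width 45.6%. Matching on HMGA1 reads as well as on width raised the shared figure to 50.05%. Levels of at least 2 floors were found at 388 H3-only peaks (8.58%, 7.8 to 9.43), against 7.41% of all shared peaks. Shared peaks of the same width had 5.76%, and those of the same width and reads 4.22%. Above the floor, the H3-only share of the H3 list did not rise steadily with the H3 level. It was 2.5% up to 1.25 floors, 1.79% from 2 to 3 floors and 2.52% at 5 floors or more.

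The values also showed which stretch of DNA had set each control level. MACS2 takes the highest of the genome-wide floor and the control coverage over the fragment length, 1 kb and 10 kb around the summit. With a fragment of 187 bp, every control level at the 4521 H3-only peaks came out as the floor, a whole read number, or a whole number of reads spread over 1 kb or 10 kb, within 0.0003 reads. A level that fits both windows was counted under 1 kb. The 10 kb stretch set the level at 1622 H3-only peaks (35.9%, 34.5 to 37.3), against 19.4% of all H3-list peaks and 16.8% of shared peaks of the same width. The 1 kb stretch set it at 20.5% against 18.2%, and the summit itself at 18.0% against 19.4%. H3 above the floor was thus more often spread over a broad stretch at H3-only peaks, and the share with H3 reads gathered at the summit differed little.

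Where the 10 kb stretch set the level, it held a median of 138 H3 reads (quartiles 127 and 189). A stretch at the floor would hold 117, and the corresponding shared peaks had 133 (124 and 151). Where the summit set the level, H3-only and shared peaks both had a median of 3 H3 reads (3 and 4). H3-only peaks had fewer HMGA1 reads than shared ones of the same width under each of the 4 sources, with medians of 17, 18, 18 and 18 against 18, 21, 20 and 20 in the order floor, summit, 1 kb and 10 kb.

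**Figure D2:**
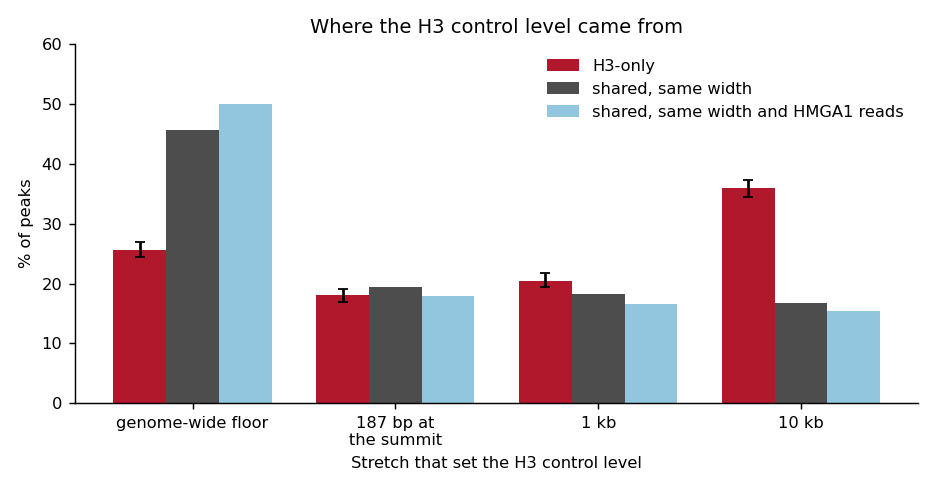
Percentage of peaks whose H3 control level was set by the genome-wide floor, the 187 bp at the summit, 1 kb or 10 kb, for H3-only peaks (red, with Wilson 95% intervals), shared peaks of the same width (grey) and shared peaks of the same width and HMGA1 reads (blue). H3-only peaks are at 25.6% for the floor and 35.9% for 10 kb, against 45.6% and 16.8% for shared peaks of the same width.

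The input control at H3-only sites is not recorded, since the input list has no peak there, but it is recorded at the nearest input-list peak. That neighbour had a median input level of 1.38 floors (quartiles 1.2 and 1.92). The nearest other input-list peak of shared peaks of the same width had 1.14 floors (1.0 and 1.38). Input was at its floor in 7.59% (6.85 to 8.39) of the neighbours of H3-only peaks and in 35.1% of those of shared peaks of the same width. In 3385 H3-only peaks (74.9%, 73.6 to 76.1) the neighbour's input level, in floors, was above the H3 level at the peak itself, against 44.4% of shared peaks of the same width. The neighbours also carried more HMGA1, with a median of 23 reads against 19, and 3572 of them (79.0%, 77.8 to 80.2) overlapped an H3-list peak themselves, against 66.6%.

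Every summit of the H3 list, H3-only or shared, had enough HMGA1 reads to pass over input at its floor. The lowest −log10 p-value in the input list was 2.6, which 8 reads reach at the floor, and no H3-list summit had under 11. Passing at the floor therefore does not set H3-only peaks apart. For the median summit of 18 reads, the input level would have to exceed 9.02 reads, or 3.24 floors, for the summit to miss that p-value. Across the set this level had quartiles of 2.76 and 3.74 floors. The input level at the nearest input-list peak reached it in 74 of the 4521 cases (1.64%, 1.31 to 2.05). For shared peaks and their nearest other input-list peak the share was 0.161%. It was 0.295% at the same width and 0.474% at the same width and reads. Each neighbour had itself passed that p-value, so one with no more HMGA1 reads than the peak could not reach the level. The neighbour had more reads at 72.2% of H3-only peaks and 35.25% of shared peaks. At the same width this was 46.7%, and at the same width and reads 53.9%. In all other cases the outcome was fixed, so these shares do not show how often input was high enough at the sites. A stretch that passes over less than the smallest width of 187 bp would not be listed either, and how many sites missed for that reason was not tested.

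**Figure D3:**
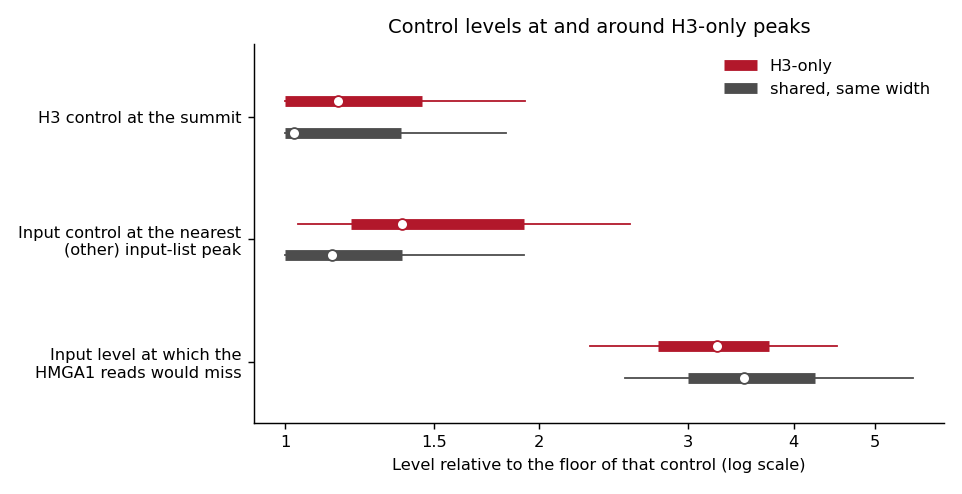
Control levels as multiples of their own floor (log axis) for H3-only peaks (red) and shared peaks of the same width (grey): H3 at the summit, input at the nearest input-list peak that does not overlap, and the input level above which the summit's HMGA1 reads would miss the lowest p-value of the input list. Circles are medians, thick bars quartiles and thin lines the 10th to 90th percentiles; the H3-only medians are 1.15, 1.38 and 3.24 floors.

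H3-only peaks lay close to the input list. The gap to the nearest input-list peak had a median of 1125 bp (quartiles 499 and 2667), with the neighbour before the peak in 2282 cases and after it in 2239. All shared peaks were 1252 bp (553 and 2996) from their nearest other input-list peak, and those of the same width 1481 bp (632 and 3604). The input-list peak that a shared peak overlaps can take up the bases beside it, which leaves less room for short gaps. How much of the difference follows from this measure was not tested. An input-list peak stood within 1000 bp on both sides of 421 H3-only peaks (9.31%, 8.5 to 10.2). This held for 7.81% of all shared peaks and 6.1% of those of the same width. At the far end, 158 H3-only peaks (3.5%, 3.0 to 4.07) were at least 10000 bp away, against 5.14% of all shared peaks and 6.82% at the same width. The H3 level of these 158 peaks was set by the 10 kb stretch in 42.4%, and by the floor in 17.7%. For the 962 peaks with a gap of 200 to 499 bp these shares were 32.1% and 27.8%. Width and height varied little with the gap: the medians were 203 bp and 18 reads in the near class and 196 bp and 18.5 reads in the far one. The neighbour's input level did, with a median of 1.6 floors in the near class and 1.25 in the far one.

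**Figure D4:**
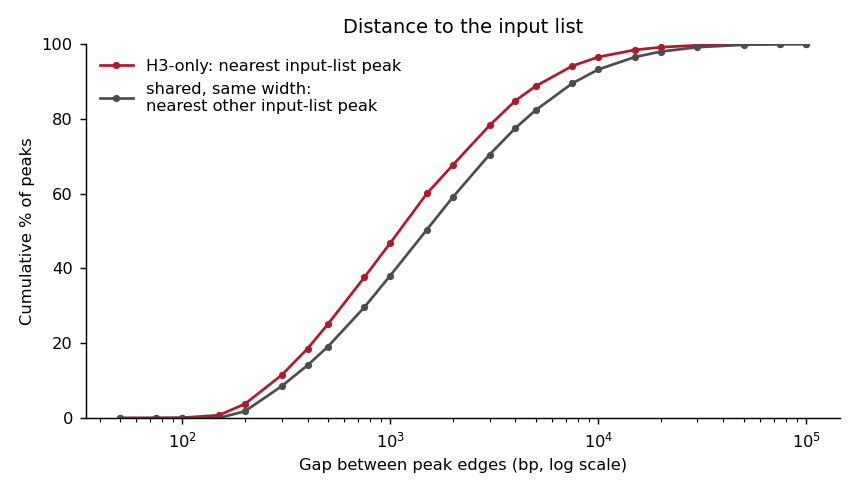
Cumulative percentage of peaks against the gap between peak edges in bp (log axis), for H3-only peaks and their nearest input-list peak (red) and for shared peaks of the same width and their nearest other input-list peak (grey). The red curve lies to the left, with a median of 1125 bp against 1481 bp.

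Chromosomes differed widely in how many of their peaks were H3-only. Chromosome 21 had the highest share, 188 of 6414 peaks (2.93%, 2.55 to 3.37), followed by chromosome 15 with 208 of 7752 (2.68%, 2.35 to 3.07) and chromosome 1 with 526 of 23610 (2.23%, 2.05 to 2.42). Chromosome 7 had the lowest, 33 of 9998 (0.33%, 0.235 to 0.463), with chromosome 14 next at 19 of 5171 (0.367%, 0.235 to 0.573). Chromosomes 7, 14, 16, 20 and 22 together held 82 H3-only peaks among 20072. Intervals lay above the 1.73% of all chromosomes in 7 cases, below it in 7 and around it in 8. By number, chromosomes 1, 2, 4 and 6 held 2102 H3-only peaks, 46.5% of the set against 39.2% of the H3 list.

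The spread between chromosomes was not narrower at equal width and reads. If H3-only peaks were divided like shared peaks of the same width and HMGA1 reads, chromosome 21 would hold 62.0 and chromosome 7 would hold 245.4. The observed numbers were 3.03 and 0.134 times these, so the spread widened from 1.7 and 0.191 times for the plain shares. The order ran with the controls and with HMGA1 read number. H3 was at its floor at 9.36% of the H3-list peaks of chromosome 21 and 16.5% of those of chromosome 15, against 83.6% on chromosome 7 and 81.0% on chromosome 14. Over the 22 chromosomes the H3-only share and the share at the H3 floor had a Spearman correlation of -0.892, and that with the input floor -0.88. With the median HMGA1 reads of the chromosome's H3-list peaks it was 0.91, although single peaks with more reads were less often H3-only. These points share the 3 libraries and their depth, and copy number and mappability cannot be told apart in the control levels.

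**Figure D5:**
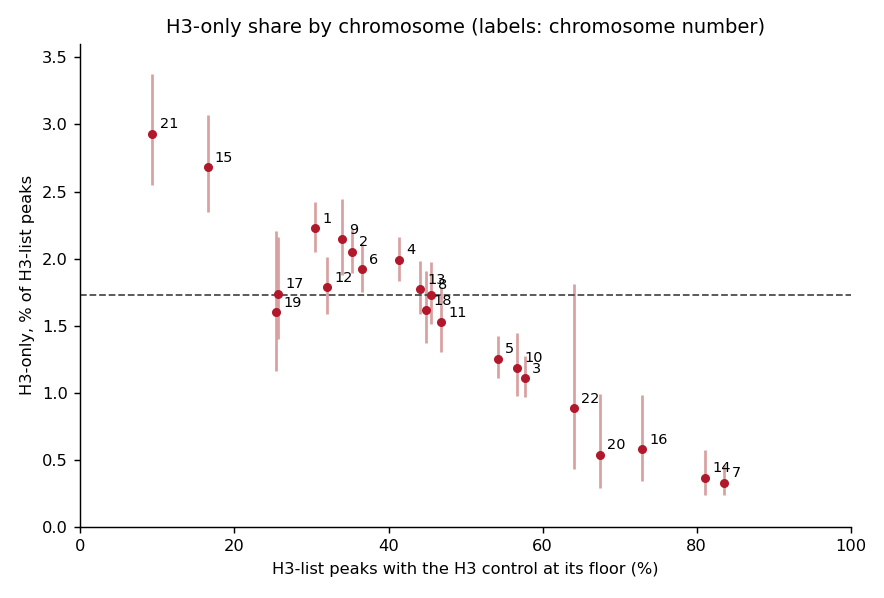
Percentage of the H3-list peaks of each chromosome that were H3-only, with Wilson 95% intervals, against the percentage of its H3-list peaks with the H3 control at the floor. Labels are chromosome numbers and the dashed line is the 1.73% of all; chromosomes 21 and 15 stand at the upper left and chromosomes 7 and 14 at the lower right.

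Along the chromosomes the H3-only share rose with the local input level. Windows of 5 Mb with at least 20 H3-list peaks were ordered by the median input level at their input-list peaks. In the 228 windows at the input floor 0.368% (0.325 to 0.418) of the H3-list peaks were H3-only, and 95 of these windows had none. The share was 1.61% (1.53 to 1.69) up to 1.25 floors, 2.44% (2.33 to 2.55) up to 1.5 floors, 3.21% (2.89 to 3.57) up to 2 floors and 3.47% (3.22 to 3.74) in the 24 windows above that. Over 560 windows the Spearman correlation of the H3-only share was 0.828 with the input level and 0.791 with the H3 level. Windows of the same libraries are not independent. The 24 raised windows held 663 H3-only peaks (14.7%, 13.7 to 15.7), against 7.3% of all H3-list peaks and 4.72% of shared peaks of the same width. On chromosome 9 they held 85.4% of the H3-only peaks, on chromosome 4 65.6% and on chromosome 21 33.0%. These figures also depend on how many of all H3-list peaks lay there, so alone they show no concentration within a chromosome. On chromosome 21 the H3-only share was 1.99% to 4.12% in the raised windows and 1.92% to 5.07% in its other windows.

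Most H3-only peaks had no other H3-only peak within 10 kb. The nearest other H3-only peak was a median of 77275 bp away (quartiles 26191 and 226846), and 578 (12.8%, 11.8 to 13.8) had one within 10 kb. When peaks with gaps of at most 10 kb were joined, 3943 stayed single, 246 runs held 2 peaks, 23 held 3, 3 held 4 and 1 held 5. The matching numbers for shared peaks are not given here, so these do not show whether H3-only peaks were more or less grouped than others. This is a thin set, 1.73% of a dense list. Some other H3-list peak lay within 10 kb of 93.5% (92.7 to 94.1) of H3-only peaks, against 89.1% of all H3-list peaks. Of the 2727 windows of 1 Mb with H3-list peaks, 1277 had no H3-only peak. The 53 windows with at least 10 held 15.0% of the set against 5.82% of the H3 list.

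Neighbours along the H3 list were alike more often than the overall share. The next H3-list peak was also H3-only after 168 of 4521 H3-only peaks (3.72%, 3.2 to 4.31) and after 1.69% (1.64 to 1.74) of shared peaks, against 1.73% in all. Inside the raised windows the shares were 6.03% (4.46 to 8.11) and 3.37% (3.12 to 3.64). Outside them they were 3.32% (2.8 to 3.93) and 1.56% (1.51 to 1.61). With peaks of −log10 q of at least 5 alone, they were 1.51% (1.02 to 2.21) and 0.802% (0.764 to 0.841).

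The 1 Mb windows with most H3-only peaks were on chromosomes 4 and 9. Chromosome 4 from 157000001 to 158000000 held 26 among 369 H3-list peaks (7.05%), with median control levels of 2.05 floors for H3 and 2.45 for input. Chromosome 9 from 25000001 held 20 of 428 at 3.42 floors of H3, and from 15000001 it held 19 of 305 at 4.11 floors. Chromosome 4 from 162000001 and from 172000001 held 19 of 467 and 17 of 416, at 1.85 and 1.88 floors of H3. Input stood above H3 in floors in each of these 5 windows. It also did in 5 Mb windows with few H3-only peaks, so this does not set the 5 apart. Chromosome 13 from 85000001 to 90000000, for example, had 1.14 floors of input against 1.0 of H3, with 0.765% H3-only.

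The leading H3-only peaks by q-value were of 2 kinds. Those with the highest scores had many reads over a high H3 level at the summit itself. On chromosome 1 the peak from 565034 to 565272 had 143 HMGA1 reads over 29 H3 reads (3.78-fold, −log10 q of 27.7). The peak from 566068 to 566278 had 175 over 48 (2.83-fold, −log10 q of 22.02). With the peaks from 567877 (60 reads over 14) and from 568757 (67 over 21) they formed a run of 4 within 3915 bp. No shared peak and no input-list peak lay inside it, and the nearest input-list peak began at 578990. For the summit with 175 reads to miss over input, the input level there would have to exceed 141.0 reads, or 50.7 floors. This end of chromosome 1 is known to carry a nuclear copy of mitochondrial DNA, and its part in these calls was not tested.

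A single peak near the end of chromosome 9, from 140222712 to 140222924, was of the same kind. It had 118 HMGA1 reads over 34 H3 reads (2.68-fold) and lay 67642 bp from the input list. The chromosome 20 peak from 29604514 to 29604937 had 65 reads over 15 H3 reads (3.26-fold), only 188 bp before an input-list peak with 101 reads over 17.8 input reads.

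The other 5 of the 10 highest scores were sharp peaks of 207 to 240 bp with 25 to 28 reads over little H3. The peak on chromosome 1 from 189149908 to 189150136 had the highest fold of the set, 6.73, with 26 reads and H3 at the floor. An input-list peak with 22 reads began 539 bp after it, at 189150676. On chromosome 12, the peak from 58702570 to 58702776 had 26 reads and a 6.61-fold enrichment, 4179 bp from the input list. The chromosome 3 peak from 196441878 to 196442106 had 27 reads (6.41-fold, H3 level 2.47), and the chromosome 13 peak from 80080880 to 80081108 had 25 reads (6.33-fold, H3 level 2.26). On chromosome 11 the peak from 120911238 to 120911477 had 28 reads (5.51-fold, H3 level 3.18). To miss over input, these 5 summits would need input levels of 5.02 to 5.81 floors. Their nearest input-list peaks, which were themselves called over input, had 1.12 to 1.92. The input level at the 5 summits is not recorded, and whether it was this high was not tested. The fifth highest fold, 6.24, was on chromosome 1 from 191424449 to 191424669, with 24 reads at the H3 floor and an input-list peak of 34 reads 382 bp before it.

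The 5 widest H3-only peaks had read numbers like those of the whole set, which had a median of 18 (quartiles 16 and 20). The widest, on chromosome 15 from 49908966 to 49909859, spanned 894 bp with 18 reads at the summit (4.42-fold). It was followed by 810 bp on chromosome 1 from 90704597 (22 reads, 3.66-fold) and by 772 bp on chromosome 8 (13 reads, 2.81-fold). The peak on chromosome 11 from 110149281 spanned 649 bp (17 reads, 3.65-fold) and began 201 bp after an input-list peak with 20 reads. The chromosome 6 peak from 45076167 spanned 645 bp with 22 reads (4.58-fold).

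The H3-only peak farthest from the input list was on chromosome 12 from 110008682 to 110008888, 70911 bp before the next input-list peak, with 19 reads (4.41-fold, H3 level 2.62). The chromosome 16 peak from 87707426 to 87707612 was 58346 bp away with 16 reads at the H3 floor. On chromosome 17 the peak from 1103113 was 46192 bp away with 11 reads (2.89-fold), the lowest read number in the set. On chromosome 6 the peak from 36593676 was 39639 bp away with 25 reads (5.38-fold).

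The largest run held 5 H3-only peaks on chromosome 9 from 3502389 to 3515949, inside a raised window. They had 22 to 31 HMGA1 reads at H3 levels of 2.11 to 2.29 floors, and were interleaved with 6 shared peaks of the H3 list. Nearby input-list peaks had up to 65 reads. Its neighbours' input levels, from 2.56 to 4.48 floors, stood above the H3 level at each of the 5 peaks. On chromosome 4 a run of 4 from 179101056 to 179110296 had 18 to 23 reads at 1.66 to 2.29 H3 floors, beside input-list peaks of 39 to 72 reads. By contrast, a run of 4 on chromosome 12 from 29508099 to 29523372 lay at H3 levels of 1.0 to 1.09 floors with 15 to 20 reads, and a run of 3 (1 of 23 of that size) on chromosome 1 from 97270652 to 97275358 held 13 to 18 reads with no shared peak between them.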

How the data were processed

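The authors deposited 2 MACS2 narrowPeak lists on hg19, per the submitters' processing notes, both from 1 HMGA1 ChIP library. The version of MACS2, the aligner and the filters on reads remain not given in the sources used here. Each deposited peak has a fold (ratio) over its control, p-value and q-value in −log10 form, a score in whole numbers and a summit position. The score is 10 times the −log10 q-value without decimals, except at 1 input-list peak. The prefix of the peak names differs from HMGA1, and the ChIP was taken from the names of the lists.

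HMGA1 reads and control levels were solved from fold and p-value as a Poisson tail, with a tolerance of 0.001 on −log10 p. HMGA1 reads were multiplied by 0.787 in the H3 list, a factor fitted on 400 peaks, and input reads by 0.89. The solving step, the fitting of the factor and the overlap step were run on simulated data. The assignment of control levels and the weighting, described next, were not. Control levels were assigned to the floor, summit, 1 kb or 10 kb by divisibility. Shared peaks were weighted to the widths of the H3-only peaks, without random draws. For 29 H3-only peaks no shared peak of the same width and reads existed. Raised windows are 5 Mb windows whose median input level was at least 2 floors.

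Members, lists and measures were chosen with earlier results of these data known. The peaks named are the 10 with the highest scores, the 5 with the highest folds, widths, gaps or H3 levels, the 5 largest runs and the 5 fullest 1 Mb windows. Ties were broken by chromosome name and position, which picked the fifth run among 23 of equal size. An hg19 genome or annotation was not used, so gene context, base composition and sequences were not analysed here. Coordinates are 1-based. Software was Python 3.11.15, scipy 1.17.1, numpy 2.4.6, matplotlib 3.10.9 and pandas 2.3.3.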

Additional observations from a re-analysis of the deposited data

How the results depend on the processing

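Each antibody had 1 library, so no replicate could be left out. No paired analysis was possible because each group has a single library, so the number 1 is the only one shared. The number of H3-only peaks was 10336 when summits had to be more than 200 bp apart, 2404 with a gap of at least 1000 bp, 1660 with −log10 q of at least 5 and 2263 with a fold of at least 4. The ratio of H3 control levels to shared peaks of the same width was 1.098 without width matching, 1.154 with the same reads too, 1.083 without the raised windows and 1.072 with −log10 q of at least 5. The median width was 199 bp with a gap of at least 1000 bp. The median distance to the input list was 1415 bp between summits, 1194 bp with −log10 q of at least 5 and 1197 bp without the raised windows. The share with another H3-only peak nearby was 7.94% within 5 kb, 38.9% within 50 kb, and 10.5% within 10 kb without the raised windows. With the same width and reads, the chromosome ratios were 0.134 for chromosome 7 and 3.01 for chromosome 21, which had 1.32 with −log10 q of at least 5. The share of H3-only peaks followed by another was 1.51% with −log10 q of at least 5. The 10 kb stretch set the H3 level in 31.9% without the raised windows, 38.3% with a gap of at least 1000 bp and 38.3% with −log10 q of at least 5. The ratio of H3 levels stayed above 1 in the 5 settings run for it. With the same reads too, and with −log10 q of at least 5, the shared median was the floor of 2.188 reads. A ratio below 1 was not possible in those settings. The chromosome ratios stayed on their side of 1 in the 3 settings run for them. Alternatives for following peaks, the 10 kb stretch, and the number without raised windows were chosen after seeing the data. For all of these, the cause was not tested. Sites with fewer than 11 HMGA1 reads were not detectable over H3 at this depth.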

Other observations

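Outside chromosomes 1 to 22 the H3 list held 16 further peaks without an input-list peak. Chromosome X had none among its 796 H3-list peaks. Chromosome Y had 5 of 382, with 21 to 52 HMGA1 reads, H3 levels of 1.83 to 5.55 floors and gaps of 356 to 10407 bp to the input list. The mitochondrial genome had 11 of 11, with 239 to 374 reads over H3 levels of 44.3 to 75.4 floors and folds of 1.31 to 1.95. The run of 4 on chromosome 1 from 565034 to 568948, which lies where a nuclear copy of mitochondrial DNA is known, had 60 to 175 reads over 6.4 to 21.9 floors of H3. No input-list peak was called on the mitochondrial genome or inside that run.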
